A study of Homo sapiens with 6 samples.

Results

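The scaffold genes that sit upstream of the Hippo kinases at the cell membrane were described across 6 RNA libraries of AGS cells, a long-established line grown from a human stomach adenocarcinoma. They are 10 of the 18597 genes listed in every library and were taken by name as members of the pathway: WWC1, WWC2 and WWC3 (the KIBRA family), NF2 (merlin), FRMD6, RASSF1, PTPN14, and AMOT, AMOTL1 and AMOTL2 (the angiomotins). The choice was made with earlier results of these data known. All 10 scaffold genes were found by NCBI Gene ID. AGS cells in 12-well plates received a small interfering RNA against DUB1 (siDUB1, 3 libraries) or a control one (siControl, 3 libraries), so every library is from transfected cells of the same line. The duplex sequences, the dose and the time after transfection are not given in the sources used here. Expression was measured by RNA sequencing on the BGISEQ-500 and deposited as FPKM, which scales a gene's fragments by its length and by the library's mapped fragments. The labels do not say whether replicates were separate cultures, so p-values measure only the spread between these libraries, which may be technical.

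The Hippo pathway is a kinase relay in which MST kinases activate LATS kinases, and LATS phosphorylates the co-activators YAP and TAZ, which then stay out of the nucleus. Merlin, KIBRA and FRMD6 act before the kinases by gathering them at the membrane near cell junctions. RASSF1 scaffolds MST, while PTPN14 and the angiomotins bind YAP or TAZ directly and hold them in the cytoplasm or at junctions. In epithelial cells, including those of the stomach, this relay limits growth when cells are crowded. These are known functions of the proteins, and only transcripts were measured here.

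DUB1 is a synonym of USP36, a nucleolar deubiquitinase, in the RefSeq gene table. USP36 was at 4.11, 4.75 and 2.59 FPKM in siDUB1 libraries 1, 2 and 3, against 9.16, 6.74 and 7.25 FPKM in siControl libraries 1, 2 and 3. Every siDUB1 library lay below every siControl library (log2 change -0.87, SE 0.21, limma adjusted p = 0.0432, 0.000197 without siDUB1 replicate 3). That call was lost when any 1 of the other libraries was dropped, with limma adjusted p = 0.179, 0.125 and 0.152 for siControl replicates 1, 2 and 3 and 0.0878 and 0.0509 for siDUB1 replicates 1 and 2. It was also lost with pseudocounts of 0.1 or 0.01 (0.0516 and 0.0526) and with no filter on low values (0.0676). All 6 epithelial markers examined were at 1 FPKM or more in every library. KRT7 was lower in siDUB1 cells, at 7.55 ± 1.66 FPKM against 29.8 ± 0.884 FPKM in siControl cells (SD, n = 3 each; limma adjusted p = 0.00218). The other epithelial markers did not pass with all libraries. Of the leukocyte, endothelial and fibroblast markers only LYZ and COL1A1 reached 1 FPKM, and the highest value of the others was 0.37 FPKM. LYZ was at 541.7 ± 156 FPKM in siDUB1 cells and 186.3 ± 0.76 FPKM in siControl cells, and COL1A1 at 9.60 ± 1.45 and 19.1 ± 0.466 FPKM (SD, n = 3 each), and their part in the results was not tested. siDUB1 replicate 3 stood apart: its Pearson correlation across tested genes with the other siDUB1 libraries was 0.964 at most, against 0.997 or more for other pairs within a group. Results are therefore also given without it, from siDUB1 replicates 1 and 2 against the 3 siControl libraries. That fit called 25.6% of all tested genes lower and 31.7% higher (limma adjusted p under 0.05), so its small p-values are common among all genes. Depth per library is unknown, since the files hold FPKM only.

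Of the 9 scaffold genes tested, 4 fell in siDUB1 cells (WWC2, WWC3, FRMD6 and RASSF1), none rose and 5 did not pass. A gene was tested when it had at least 1 FPKM in at least 3 libraries, and a call needs a Benjamini-Hochberg adjusted p under 0.05 over all 10994 tested genes (limma on log2(FPKM + 1)). Over all tested genes 5.92% were called lower and 8.13% higher. The 651 lower calls over all genes became 71, 80 and 77 when siControl replicate 1, 2 or 3 was dropped. They became 238 and 399 when siDUB1 replicate 1 or 2 was dropped, so calls were lost well beyond the scaffolds. The median log2 change of the 9 was -0.63, against -0.06 over all tested genes. In 7 of the 9, all siDUB1 libraries lay below all siControl libraries, against 28.5% of all tested genes. Because the scaffolds were chosen with earlier results of these data known, these comparisons with all genes are a description only. FRMD6 passed the filter through siControl alone, where it is high, so its place among the tested genes is tied to its difference. AMOT was under the filter in every library and was not tested. In this bulk measurement fewer cells with a transcript and less transcript per cell cannot be told apart.

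**Figure D1:**
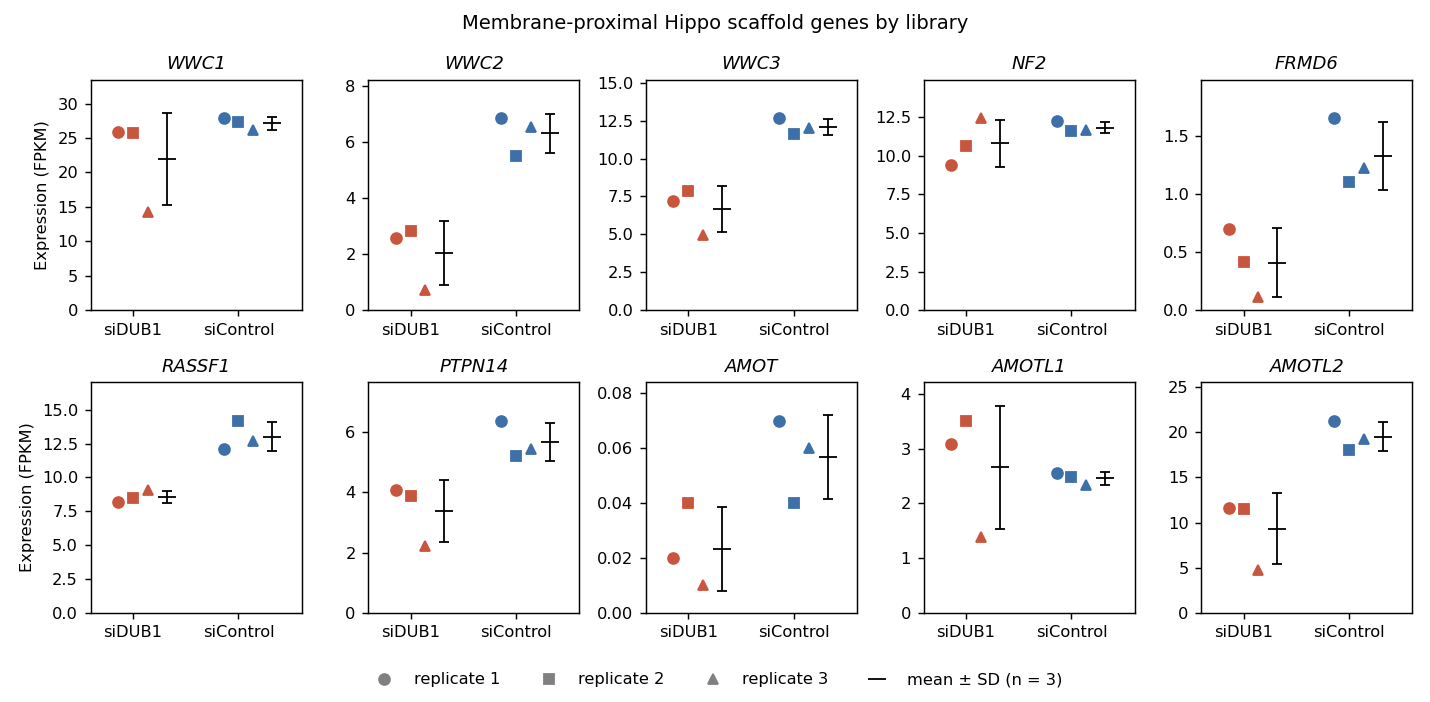
Expression in FPKM (vertical axes, each from 0) of the 10 scaffold genes in 3 siDUB1 libraries (red, left) and 3 siControl libraries (blue, right), with the mean ± SD of each group in black. For WWC2, WWC3, FRMD6, RASSF1, PTPN14, AMOTL2 and WWC1 every siDUB1 point lies below every siControl point, and siDUB1 replicate 3 (triangle) is the lowest siDUB1 point for every gene but NF2 and RASSF1.

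FPKM is scaled by length, so levels can be set side by side. In siDUB1 cells WWC1 had the highest mean (22.0 FPKM), followed by NF2 (10.8), AMOTL2 (9.31), RASSF1 (8.56), WWC3 (6.68), PTPN14 (3.39), AMOTL1 (2.66), WWC2 (2.04), FRMD6 (0.407) and AMOT (0.0233 FPKM). In siControl cells WWC1 (27.1 FPKM) was followed by AMOTL2 (19.5), RASSF1 (13.0), WWC3 (12.1), NF2 (11.8), WWC2 (6.30), PTPN14 (5.66), AMOTL1 (2.46), FRMD6 (1.32) and AMOT (0.0567 FPKM). Neighbours whose library ranges overlapped were NF2 with AMOTL2, AMOTL2 with RASSF1, PTPN14 with AMOTL1 and AMOTL1 with WWC2 in siDUB1 cells, and RASSF1 with WWC3, WWC3 with NF2 and WWC2 with PTPN14 in siControl cells. NF2 lay above AMOTL2 in siDUB1 library 3 alone (12.44 against 4.77 FPKM). In siDUB1 libraries 1 and 2 AMOTL2 was the higher, at 11.66 and 11.49 FPKM, against 9.39 and 10.62 FPKM for NF2. The place of NF2 above AMOTL2 in the siDUB1 means therefore rests on siDUB1 library 3. WWC1 stood above every other scaffold in both groups.

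The letters around the scaffolds' RefSeq starts were searched for the core hexamer bound by TEAD, the DNA-binding partner of YAP and TAZ. This search was not among the planned comparisons. Each window runs from 250 bases before to 50 bases after a start on GRCh38. GGAATG or its reverse complement CATTCC was present in 4 of the 12 windows of the members, against 14.0% of all 35116 windows and 11.6% of those of tested genes. The windows that hold it belong to WWC2, RASSF1, PTPN14 and AMOTL2 and are shown for that reason, each read 5′ to 3′ on the gene's strand with the hexamer in capitals.
WWC2, chr4:183099007-183099306, plus strand: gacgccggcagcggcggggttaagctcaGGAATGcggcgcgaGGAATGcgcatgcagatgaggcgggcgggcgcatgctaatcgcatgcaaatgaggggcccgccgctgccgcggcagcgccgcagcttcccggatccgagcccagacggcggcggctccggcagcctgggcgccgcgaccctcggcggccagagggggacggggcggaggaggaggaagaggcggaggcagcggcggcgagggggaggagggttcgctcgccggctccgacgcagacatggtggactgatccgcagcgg
RASSF1, chr3:50337401-50337700, minus strand: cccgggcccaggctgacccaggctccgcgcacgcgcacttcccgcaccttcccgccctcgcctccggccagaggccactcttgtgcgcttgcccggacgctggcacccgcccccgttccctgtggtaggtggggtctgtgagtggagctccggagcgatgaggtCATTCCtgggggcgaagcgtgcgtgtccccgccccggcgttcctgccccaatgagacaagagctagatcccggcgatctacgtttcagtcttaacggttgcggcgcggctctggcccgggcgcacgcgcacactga
PTPN14, chr1:214551553-214551852, minus strand: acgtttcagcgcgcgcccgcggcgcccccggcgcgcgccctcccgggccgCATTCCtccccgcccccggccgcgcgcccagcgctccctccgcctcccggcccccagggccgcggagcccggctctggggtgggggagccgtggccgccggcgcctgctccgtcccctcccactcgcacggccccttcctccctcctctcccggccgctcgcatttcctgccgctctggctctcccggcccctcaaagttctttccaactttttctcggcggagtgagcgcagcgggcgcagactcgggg
AMOTL2, chr3:134374398-134374697, minus strand: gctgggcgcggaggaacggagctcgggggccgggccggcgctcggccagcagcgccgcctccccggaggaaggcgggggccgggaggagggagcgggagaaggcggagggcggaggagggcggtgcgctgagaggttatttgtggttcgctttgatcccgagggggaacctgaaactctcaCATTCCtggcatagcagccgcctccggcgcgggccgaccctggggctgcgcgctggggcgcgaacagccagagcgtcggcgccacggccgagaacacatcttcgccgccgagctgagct
The WWC2 window holds GGAATG at -222 and -208, counted from the start to the first base of the match. CATTCC begins at -86 in RASSF1, -200 in PTPN14 and -69 in AMOTL2. These windows hold 42 CpG in WWC2, 33 in RASSF1, 42 in PTPN14 and 37 in AMOTL2. Windows without the hexamer reach like numbers, with 43 in WWC3 and 31 in WWC1, and the median was 33 over all 12 member windows and 25 over windows of tested genes. A second AMOTL2 window, upstream of the printed one, has 1 CpG and no hexamer. The printed AMOTL2 window and the RASSF1, FRMD6 and AMOTL1 windows lie inside the annotated gene rather than at its outermost 5′ end. The hexamer was not in the windows of WWC1, WWC3, FRMD6, NF2, AMOT or AMOTL1. Its presence did not follow the calls of the uncorrected fit with all libraries. In that fit WWC3 and FRMD6 were called lower without it, and PTPN14 and AMOTL2 hold it but did not pass. With a correction for transcript GC content and length, WWC2, RASSF1, PTPN14 and AMOTL2 were called lower, and so was WWC3. Without siDUB1 replicate 3 these genes were called lower, and so were FRMD6 and NF2, which lack the hexamer. Whether it bears on the changes was not tested. A match is a description of these letters and not a measured binding site.

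In the KIBRA family, whose WW-domain proteins bind LATS and merlin, WWC2 had the largest log2 change of the 9 tested scaffolds in the fit with all libraries and a pseudocount of 1. AMOTL2 had the largest with the GC and length correction (-1.07, against -1.0 for WWC2), and FRMD6 with a pseudocount of 0.01 (-1.99, against -1.85). WWC2 (NCBI Gene 80014, chromosome 4, 183099257 to 183320777) was at 2.59, 2.81 and 0.72 FPKM in siDUB1 libraries, against 6.85, 5.51 and 6.55 FPKM in siControl libraries. All siDUB1 libraries were low, and library 3 was the lowest. It fell to 2.04 ± 1.15 FPKM in siDUB1 cells, against 6.30 ± 0.703 FPKM in siControl cells (SD, n = 3 each; log2 change -1.35, SE 0.31, limma adjusted p = 0.0384). Only 0.837% of tested genes had a lower log2 change. Without siDUB1 replicate 3 the log2 change was -0.98 (limma adjusted p = 2.75e-06). The call was lost when siControl replicate 1, 2 or 3 was dropped (adjusted p = 0.158, 0.122 and 0.152), when siDUB1 replicate 1 was dropped (0.0645), and with pseudocounts of 0.1 or 0.01 (0.0648 and 0.0695) or no filter on low values (0.0601). In GENCODE 29, 25.9% of its exon bases are shared with CLDN22 on the opposite strand, and the files do not say whether strand was used. CLDN22 itself was listed at 0, 0.01 and 0.43 FPKM in siDUB1 libraries and at 0 in every siControl library.

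WWC3 (NCBI Gene 55841, chromosome X, 10015254 to 10144474) was at 7.21, 7.87 and 4.96 FPKM in siDUB1 libraries, against 12.67, 11.62 and 12.04 FPKM in siControl libraries. The groups did not overlap, and siDUB1 library 3 was the lowest. WWC3 fell to 6.68 ± 1.53 FPKM, against 12.1 ± 0.528 FPKM in siControl cells (SD, n = 3 each; log2 change -0.79, SE 0.17, limma adjusted p = 0.0322). The change was -0.62 without siDUB1 replicate 3 (limma adjusted p = 1.23e-05). Dropping siControl replicate 1, 2 or 3 ended the call (adjusted p = 0.149, 0.125 and 0.142), as did dropping siDUB1 replicate 1 (0.0721). None of its exon bases is shared with another annotated gene.

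WWC1 (NCBI Gene 23286, chromosome 5, 168291645 to 168472303), which encodes KIBRA itself, did not pass. Its values were 25.9, 25.76 and 14.25 FPKM in siDUB1 libraries, against 27.89, 27.35 and 26.13 FPKM in siControl libraries. siDUB1 libraries 1 and 2 were just under the lowest siControl library, and library 3 was far below. The log2 change was -0.34 with a 95% interval of -0.89 to 0.21 (limma adjusted p = 0.322). Without siDUB1 replicate 3 it was -0.07, with an interval of -0.18 to 0.05 (adjusted p = 0.306).

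The family's summed transcript was 35.7, 36.4 and 19.9 FPKM in siDUB1 libraries, against 47.4, 44.5 and 44.7 FPKM in siControl libraries. WWC1 made up 70.7% to 72.5% of that sum in siDUB1 cells and 58.4% to 61.5% in siControl cells, while the share of WWC2 was 3.61% to 7.71% in siDUB1 cells and 12.4% to 14.6% in siControl cells. Apart from the pseudocount, ratios within a library do not depend on its scaling. They need not remove a deviation that follows transcript GC content, which was 54.4% for WWC1, 43.1% for WWC2 and 53.4% for WWC3. The log2 ratio of WWC2 to WWC1, each as FPKM + 1, was -2.91, -2.81 and -3.15 in siDUB1 libraries and -1.88, -2.12 and -1.85 in siControl libraries. The groups did not overlap (difference -1.01, exact permutation test, two-sided, p = 0.1, the smallest that 3 against 3 libraries allows, adjusted p = 0.12 over 6 paralogue pairs). WWC2 over WWC3 differed by -0.55 and WWC1 over WWC3 by 0.45, also with no overlap and the same p. Without siDUB1 replicate 3 the differences were -0.91 for WWC2 over WWC1, -0.36 for WWC2 over WWC3 and 0.55 for WWC1 over WWC3. With no pseudocount the difference for WWC2 over WWC3 was -0.97. This test cannot pass the threshold with 3 against 3 libraries, whatever the size of the difference.

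**Figure D2:**
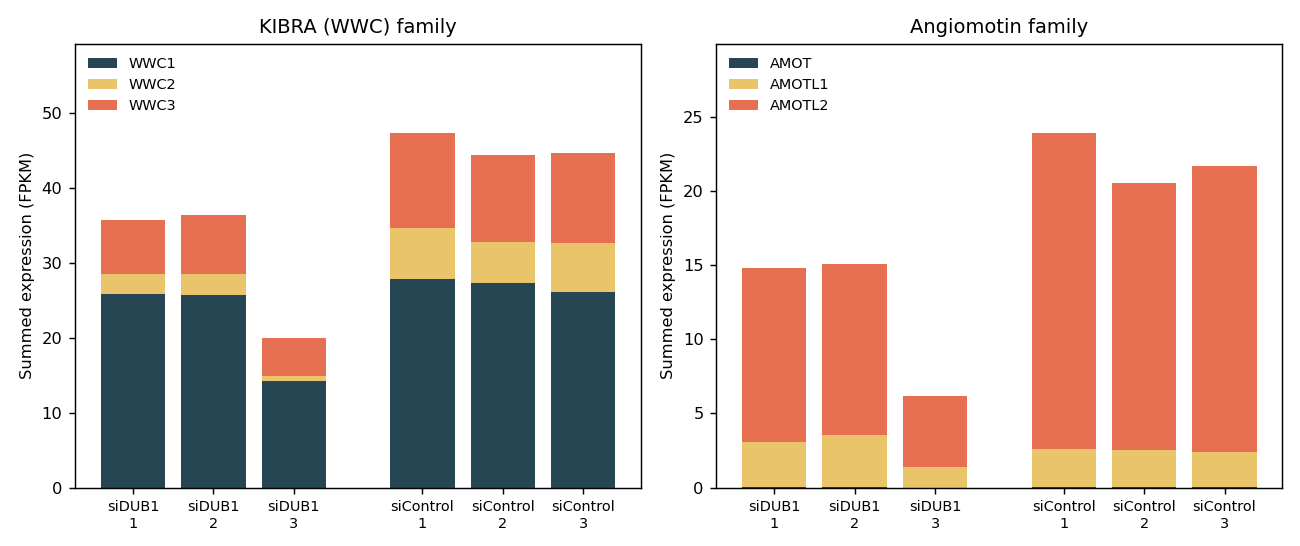
Summed expression in FPKM (vertical axes, from 0) of the KIBRA family (left panel) and the angiomotin family (right panel) in each library, siDUB1 left of siControl, with bars divided by gene. WWC1 and AMOTL2 take the largest part of each bar, and the siDUB1 bars are shorter than every siControl bar.

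Among the angiomotins, AMOTL2 carried most of the transcript. AMOTL2 (NCBI Gene 51421, chromosome 3, 134355345 to 134375417), itself a known YAP/TAZ target gene, was at 11.66, 11.49 and 4.77 FPKM in siDUB1 libraries, against 21.28, 18.02 and 19.31 FPKM in siControl libraries. All siDUB1 libraries lay below the siControl range, library 3 the farthest. The mean was 9.31 ± 3.93 FPKM in siDUB1 cells and 19.5 ± 1.64 FPKM in siControl cells (SD, n = 3 each). With all libraries AMOTL2 did not pass (log2 change -1.08, SE 0.31, 95% interval -1.83 to -0.32, limma adjusted p = 0.0677). It passed as lower without siDUB1 replicate 3 (-0.70, adjusted p = 4.74e-06), with size factors (-1.02, adjusted p = 0.0439) and with quantile normalization (-0.95, adjusted p = 0.0157), all by limma.

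AMOTL1 (NCBI Gene 154810, chromosome 11, 94706460 to 94876748) was at 3.09, 3.51 and 1.39 FPKM in siDUB1 libraries, against 2.56, 2.48 and 2.33 FPKM in siControl libraries. siDUB1 libraries 1 and 2 were above the siControl range and library 3 was below it. The log2 change was 0.03 with a 95% interval of -0.56 to 0.62 (limma adjusted p = 0.933). Without siDUB1 replicate 3 AMOTL1 was the only scaffold called higher (0.31, interval 0.13 to 0.50, limma adjusted p = 0.00776). AMOT (NCBI Gene 154796, chromosome X, 112774877 to 112840831) was listed at 0.02, 0.04 and 0.01 FPKM in siDUB1 libraries and at 0.07, 0.04 and 0.06 FPKM in siControl libraries. These values are close to the last decimal the files keep, and no fold is given.

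The angiomotin sum was 14.8, 15.0 and 6.17 FPKM in siDUB1 libraries, against 23.9, 20.5 and 21.7 FPKM in siControl libraries. AMOTL1 took 20.9% to 23.3% of it in siDUB1 cells and 10.7% to 12.1% in siControl cells. The log2 ratio of AMOTL2 to AMOTL1 was 1.63, 1.47 and 1.27 in siDUB1 libraries and 2.65, 2.45 and 2.61 in siControl libraries. The ratio was low in all siDUB1 libraries, replicate 3 among them (difference -1.11, and -1.02 without that library, exact permutation p = 0.1, adjusted p = 0.12). The ratios of AMOTL2 and of AMOTL1 to AMOT follow the pseudocount, since AMOT is near 0.

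RASSF1 (NCBI Gene 11186, chromosome 3, 50329788 to 50340836) had siDUB1 values that lay close together. It was at 8.16, 8.48 and 9.04 FPKM in siDUB1 libraries, against 12.12, 14.18 and 12.72 FPKM in siControl libraries, and the groups did not overlap. Its fall did not rest on siDUB1 replicate 3, which was the highest of the siDUB1 libraries (log2 change -0.55, SE 0.11, limma adjusted p = 0.0285, and -0.59 with adjusted p = 3.18e-05 without that library). The call was lost with size factors (adjusted p = 0.0718), with quantile normalization (0.0893), and when siControl replicate 1, 2 or 3 (0.113, 0.143 and 0.139) or siDUB1 replicate 1 or 2 (0.0916 and 0.0698) was dropped. In GENCODE 29, 17.9% of its exon bases are shared with RASSF1-AS1 on the opposite strand. Gene-level values do not separate the RASSF1A transcript, which is silenced in many tumours, from RASSF1C.

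NF2 and FRMD6, which encode FERM-domain proteins, were not compared with each other by a test. NF2 (NCBI Gene 4771, chromosome 22, 29603556 to 29698600) was at 9.39, 10.62 and 12.44 FPKM in siDUB1 libraries, against 12.23, 11.61 and 11.64 FPKM in siControl libraries. Libraries 1 and 2 of siDUB1 were below the siControl range and library 3 was above it. NF2 did not pass (log2 change -0.13, 95% interval -0.44 to 0.19, limma adjusted p = 0.504), and without siDUB1 replicate 3 it was called lower by a small amount (-0.22, adjusted p = 0.0160).

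FRMD6 (NCBI Gene 122786, chromosome 14, 51396431 to 51730727), related to the Expanded gene of the fruit fly, was scarce. It was at 0.70, 0.41 and 0.11 FPKM in siDUB1 libraries, against 1.65, 1.10 and 1.22 FPKM in siControl libraries. FRMD6 fell by 0.74 on the log2(FPKM + 1) scale (SE 0.18, limma adjusted p = 0.0421, and -0.58 with adjusted p = 0.00145 without siDUB1 replicate 3). At this level the pseudocount sets the size of the change, which was -1.67 and -1.99 with pseudocounts of 0.1 and 0.01 and was then not called (adjusted p = 0.0737 and 0.0923). The call was also lost when siControl replicate 1, 2 or 3 (0.171, 0.119 and 0.148) or siDUB1 replicate 2 (0.0783) was dropped, with no filter on low values (0.0550), and with a correction for transcript GC content and length (-0.37, adjusted p = 0.0945).

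PTPN14 (NCBI Gene 5784, chromosome 1, 214348700 to 214551602), a tyrosine phosphatase that binds YAP, was at 4.07, 3.88 and 2.21 FPKM in siDUB1 libraries, against 6.37, 5.19 and 5.42 FPKM in siControl libraries. The groups did not overlap, but PTPN14 did not pass (log2 change -0.63, 95% interval -1.12 to -0.13, limma adjusted p = 0.0885). It passed as lower without siDUB1 replicate 3 (-0.42, adjusted p = 0.00155), with quantile normalization (-0.42, adjusted p = 0.0330) and with the GC and length correction (-0.36, adjusted p = 0.0123). Of its exon bases 7.27% are shared with other genes, among them KRT18P12, a pseudogene of the keratin gene KRT18. KRT18 averaged 2063.8 FPKM in siDUB1 cells and 2121.3 FPKM in siControl cells.

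**Figure D3:**
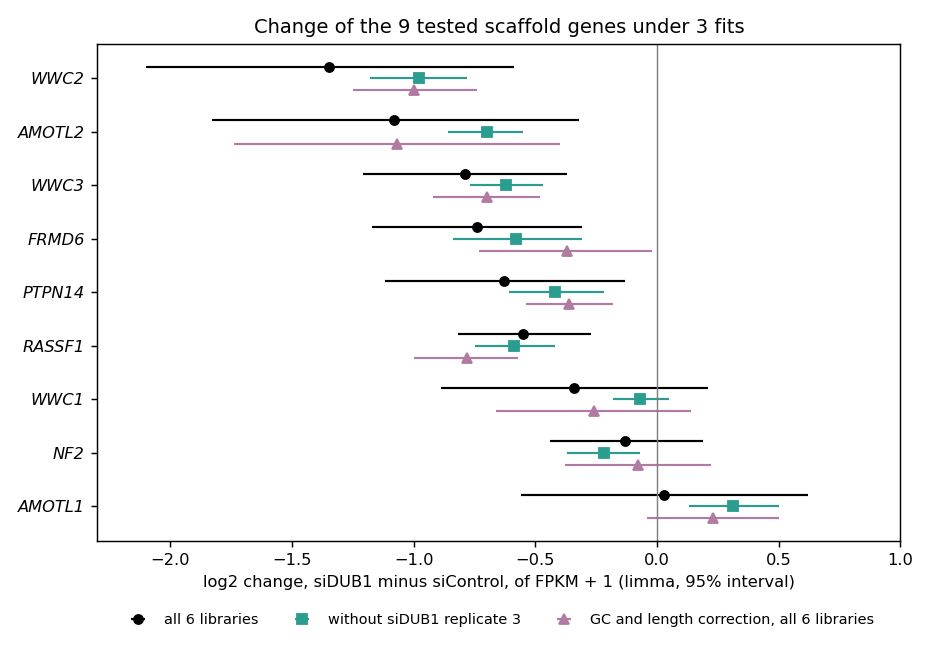
Log2 change of FPKM + 1 (horizontal axis, siDUB1 minus siControl) with its 95% interval from limma for the 9 tested scaffolds, with all libraries (black), without siDUB1 replicate 3 (green) and with a correction for transcript GC content and length (purple). WWC2 lies lowest in the fit with all libraries (-1.35), AMOTL1 lies at or above 0 in all 3 fits, and each gene's interval is shorter without siDUB1 replicate 3 than with all libraries.

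Without siDUB1 replicate 3, 7 of the 9 tested scaffolds were called lower, 1 higher and 1 did not pass. That fit called 25.6% of all tested genes lower and 31.7% higher, and its median over all genes was 0.02, against -0.58 for the scaffolds. The deviation of that library followed the GC content of transcripts: its median difference from siDUB1 replicates 1 and 2 was -0.87 in the GC-poorest decile of genes and 0.41 in the GC-richest (log2(FPKM + 1) scale). Some scaffolds lay near the median of their GC decile and others far below it. PTPN14, with 45.8% GC, was -0.63 lower in replicate 3 against -0.57 for its decile, and RASSF1, with 60.1% GC, stood at 0.11 against 0.27. AMOTL2 (56.7% GC) stood at -1.12 against 0.16 for its decile, WWC1 (54.4% GC) at -0.82 against 0.01, and WWC3 (53.4% GC) at -0.52 against 0.01. The GC-poor WWC2 (43.1% GC) stood at -1.1 and FRMD6 (41.5% GC) at -0.48, both against -0.71. AMOTL1 (48.8% GC) stood at -0.85 against -0.38, and NF2 (56.0% GC) at 0.29 against 0.16. With the GC and length correction and all libraries, 5 scaffolds were called lower (WWC2, WWC3, RASSF1, PTPN14 and AMOTL2) and none higher, against 16.4% and 18.1% of all genes in that fit. With the correction and without siDUB1 replicate 3, 7 were lower and 1 higher, against 28.9% and 30.9% of all genes. Size factors gave 4 lower (AMOTL2 in place of RASSF1) and none higher, against 6.54% and 6.33% of all genes. Quantile normalization gave 5 lower (PTPN14 and AMOTL2 passed and RASSF1 did not) and none higher, against 10.8% and 12.4%.

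**Figure D4:**
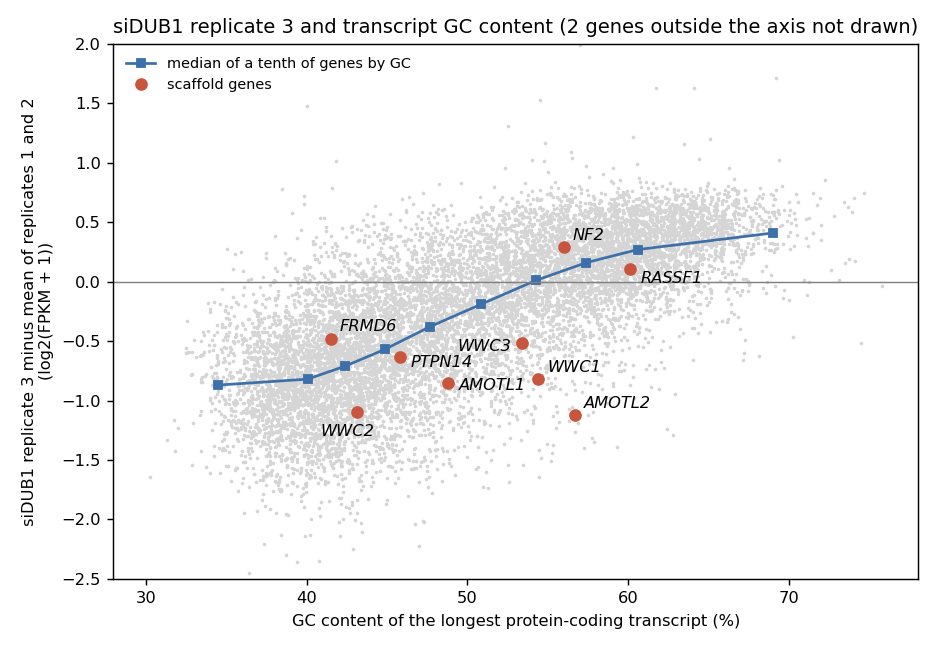
Difference of siDUB1 replicate 3 from the mean of siDUB1 replicates 1 and 2 on the log2(FPKM + 1) scale (vertical axis) against the GC content of each gene's longest protein-coding transcript (horizontal axis, %). Grey points are tested genes, the blue line joins decile medians from -0.87 to 0.41, and AMOTL2 (red, -1.12) lies farthest below the line among the scaffolds.

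The rest of the pathway was examined through 6 lists of 55 genes in all, of which 47 could be tested, and none passed in either direction (limma, adjusted p under 0.05). At an unadjusted p under 0.05 there were 8 lower and 2 higher, or 17.0% and 4.26% of the 47, against 15.3% and 18.2% of all tested genes. Their median log2 change was -0.26. In the core kinase module, 0 of 11 passed (median -0.45), and MAP4K4, a kinase that can activate LATS, had the smallest p, with 20.2 ± 3.65 FPKM in siDUB1 cells and 27.7 ± 0.878 FPKM in siControl cells (adjusted p = 0.0853). Of the 7 effectors 0 passed (median -0.10), and TEAD2 was at 86.9 ± 2.52 FPKM in siDUB1 cells and 75.4 ± 1.57 FPKM in siControl cells (adjusted p = 0.114). Of 13 tested polarity and junction partners 0 passed (median -0.20), and CTNNA1, of alpha-catenin, was at 95.6 ± 15.1 FPKM in siDUB1 cells and 129.3 ± 3.52 FPKM in siControl cells (adjusted p = 0.0683). All these comparisons had n = 3 per group and used limma.

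Enzymes known to modify angiomotin proteins gave 0 of 7 calls (median -0.32). The tankyrase gene TNKS2, whose product marks angiomotins for degradation, was at 5.41 ± 3.58 FPKM in siDUB1 cells and 9.67 ± 0.984 FPKM in siControl cells (limma adjusted p = 0.228). Neither tested LIM-domain inhibitor of LATS passed, with AJUBA at 22.5 ± 4.64 FPKM in siDUB1 cells and 31.6 ± 0.404 FPKM in siControl cells (adjusted p = 0.0877). Of 7 tested relatives of the scaffolds 0 passed (median -0.32), and EZR, of the merlin relative ezrin, was at 233.4 ± 38.4 FPKM in siDUB1 cells and 317.9 ± 9.32 FPKM in siControl cells (adjusted p = 0.0710). RDX, of radixin, was at 0.0233 and 0.0400 FPKM in siDUB1 and siControl cells and was not tested. Without siDUB1 replicate 3, 15 of the 47 were called lower and 10 higher, or 31.9% and 21.3%, against 25.6% and 31.7% of all tested genes, with a median of -0.04. In that fit MAP4K4, CTNNA1, AJUBA, TNKS2 and EZR were called lower (log2 change -0.30, -0.31, -0.32, -0.33 and -0.31) and TEAD2 higher (0.18), with limma adjusted p between 0.000161 for CTNNA1 and 0.00608 for TEAD2. The co-activator genes YAP1 and WWTR1 did not pass with all libraries (log2 change -0.30 and 0.08). WWTR1 was called higher without siDUB1 replicate 3 (0.31, limma adjusted p = 0.00388) and with the GC and length correction (0.47, adjusted p = 0.00657), and YAP1 passed in neither fit (0.11 and 0.03). With that correction and without siDUB1 replicate 3, both were called higher (YAP1 0.17, limma adjusted p = 0.0184, and WWTR1 0.40, adjusted p = 0.000312). The YAP/TAZ targets ANKRD1, CCN2 and CCN1 fell by 2.43, 1.71 and 1.51 on the log2 scale (limma adjusted p = 0.00578, 0.0155 and 0.0179).

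**Figure D5:**
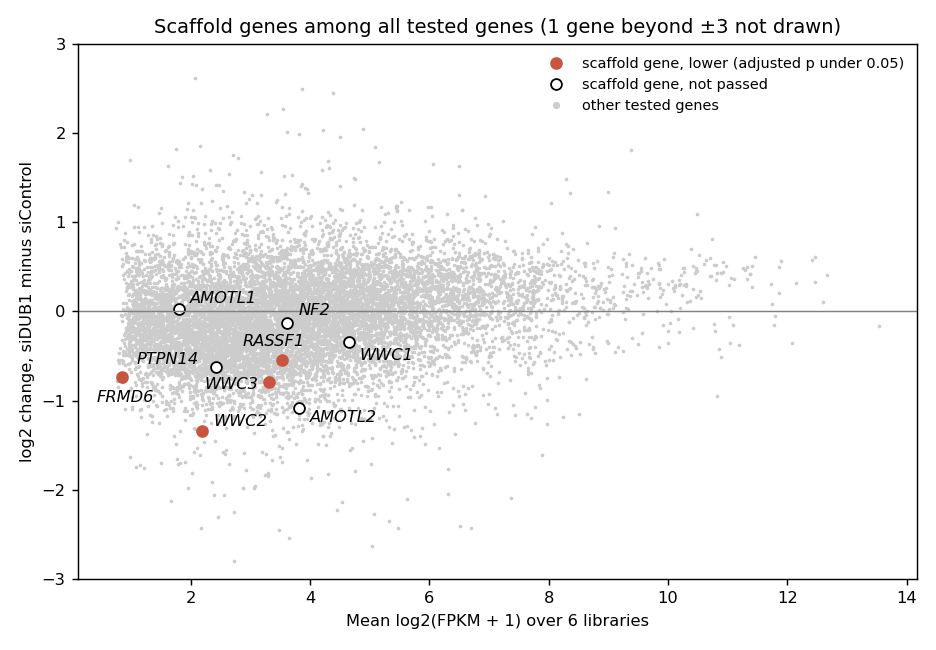
Log2 change (vertical axis, siDUB1 minus siControl) against mean log2(FPKM + 1) over 6 libraries (horizontal axis) for all tested genes (grey), with scaffolds called lower in red and those that did not pass as open circles. AMOTL2 (-1.08) lies below 3 scaffolds that were called, and AMOTL1 (0.03) and NF2 (-0.13) lie near 0.

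For each called scaffold, the tested genes outside the 10 with the nearest profile over the 6 libraries were taken by the root mean square difference of log2(FPKM + 1) after removal of each gene's mean. Nearest to WWC2 were CLDN1 (0.0441), ZNF367 (0.0553) and PRKAG2 (0.0559). CLDN1, of the tight junction protein claudin-1, was at 13.9, 14.37 and 5.71 FPKM in siDUB1 libraries, against 28.69, 24.22 and 28.23 FPKM in siControl libraries. Nearest to WWC3 were SLC20A1 (0.0264), KIF26B (0.0338) and AGO2 (0.0347). For FRMD6 they were DUSP10 (0.0548), TRIM36 (0.0611) and ELMOD2 (0.0720), and for RASSF1 they were GPER1 (0.0485), FAXDC2 (0.0542) and DIP2C-AS1 (0.0589). With 10994 genes and 6 libraries such near profiles are a description of these libraries only.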

How the data were processed

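Messenger RNA of AGS cells was measured in 3 siDUB1 and 3 siControl libraries, grouped by their titles. The deposited tables give 1 FPKM value per NCBI Gene ID rounded to 2 decimals, per the file headers. Libraries were made for the BGISEQ-500, per the labels' protocols, and the submitters' processing notes name the GRCh38 genome. The aligner, counter, annotation and use of strand are not given in the sources used here. FPKM is relative to each library's total, so abundant genes that rise lower the others, and depth is unknown.

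Gene IDs were matched to symbols in the RefSeq table (18437 of 18597 named). Genes with at least 1 FPKM in at least 3 libraries (10994) were compared on log2(FPKM + 1) with limma 3.58.1 in R 4.3.3 (eBayes with a mean-variance trend, no covariate), two-sided, with Benjamini-Hochberg adjustment over all of them. Fold changes on this scale understate those of low genes. The fit was tested on simulated data with independent noise for each gene and library. No simulated library in that check stood apart as siDUB1 replicate 3 does, so it does not cover that deviation. GC content and length are of the longest protein-coding GENCODE 29 transcript (99.2% of tested genes), chosen after the data were seen because partial models shorten a median over transcripts. The correction removed each library's deviation from the mean on splines of both with 4 degrees of freedom. It also removes any group difference that follows GC content or length. Promoter windows are from RefSeq.

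The scaffolds and lists were chosen with earlier results of these data known. All 10 scaffolds, USP36, YAP1, WWTR1, CCN1, CCN2 and ANKRD1 are named whatever their values. Per pathway list the rule also names up to 2 genes called in each direction by adjusted p, or else the 1 with the smallest p. RDX, CLDN22, KRT18 and KRT7 were named after their values were seen. Alternatives were other scalings, filters, pseudocounts and variance settings, a replicate block, the GC and length correction, and leaving out each library.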

Additional observations from a re-analysis of the deposited data

How the results depend on the processing

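Among the tested scaffolds WWC2, WWC3, FRMD6, RASSF1, PTPN14, AMOTL2, WWC1 and NF2 kept a log2 change below 0 under every alternative that could be fitted, while AMOTL1 ranged from -0.14 to 0.31 when single libraries were left out. The count of scaffolds called lower (4 in the fit reported) was 2 with no filter on low values and 2 with a pseudocount of 0.1 or 0.01, 0 with the replicate block, 7 with the GC and length correction without siDUB1 replicate 3, and 0 to 7 when single libraries were left out. Over all genes, lower calls were 604 of 17900 with no filter and 98 of 10994 with the replicate block. They were 543 and 533 of 10994 with pseudocounts of 0.1 and 0.01. The cause of these differences in count was not tested. With the replicate block limma adjusted p was 0.0836 for WWC2, 0.0978 for WWC3, 0.0706 for FRMD6, 0.122 for RASSF1 and 0.0985 for USP36. The count called higher was 1 with that correction without siDUB1 replicate 3 and 0 to 1 when single libraries were left out. Over all genes, lower and higher calls (651 and 894) were 1190 and 1364 after quantile normalization, 98 and 81 with the replicate block, 1785 and 1971 after correction for GC and length, 1274 and 1377 with that correction and the replicate block, and 3150 and 3370 with it and without siDUB1 replicate 3. Leaving out single libraries gave 71 to 2818 lower and 54 to 3481 higher calls, and fits with 5 libraries have fewer degrees of freedom. With size factors 719 were lower and 696 higher. The pathway lists (0 and 0) had 4 lower and 1 higher after quantile normalization, 9 and 6 after correction for GC and length, 6 and 3 with it and the replicate block, 15 and 14 with it and without siDUB1 replicate 3, and 0 to 15 lower and 0 to 10 higher when single libraries were left out. Deviations from group means of same-numbered libraries correlated at 0.254, -0.491 and -0.227 across genes. siDUB1 replicates 2 and 3 correlated best with siControl replicates 1 and 2. Because siDUB1 replicate 3 stood apart, it shapes the deviations of its whole group. These correlations therefore cannot show whether the replicate numbers pair the libraries. The ratio of AMOTL2 to AMOT differed by -1.03 with a pseudocount of 1 and by 0.29 with none, as AMOT lay near 0. Without single libraries the differences ranged from -1.09 to -0.91 for WWC2 over WWC1, -0.66 to -0.36 for WWC2 over WWC3, 0.37 to 0.55 for WWC1 over WWC3, -1.23 to -0.67 for AMOTL2 over AMOT, -1.20 to -1.02 for AMOTL2 over AMOTL1 and -0.35 to 0.09 for AMOT over AMOTL1. The KIBRA and angiomotin sums in siDUB1 cells were 0.674 and 0.544 of those in siControl cells, and 0.792 and 0.676 without siDUB1 replicate 3, an alternative chosen after seeing the data. Depth is unknown, so counting error could not be given.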
